A study of Mus musculus with 6 samples.

Results

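Cytosolic ribosomal protein genes were described in RAW 264.7 cells, a mouse macrophage line raised from a tumour that Abelson leukaemia virus induced, that had been exposed to bisphenol AP (BPAP), a relative of the plastics chemical bisphenol A, or only to the solvent DMSO. Genes were chosen by name from the deposited table: symbols that begin with Rpl or Rps and go on with a digit, or with p for the stalk genes, without the symbols marked -ps for pseudogene and without the S6 kinase genes. The rule found 87 of the 34745 genes in the table, 53 with large subunit names and 34 with small subunit names. It also took in Rps19bp1, whose product binds a ribosomal protein but is not one, and Rpl37rt and Rps27rt, 2 rows named after a parent gene. Components of the ribosome that are spelled otherwise were left out by it, and of these Rpsa, Fau and Gnb2l1 are described further on.

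Both groups were the same unmodified line in culture, 3 libraries each. Neither the dose of BPAP nor the length of exposure is given in the sources used here. The series concerns BPAP, macrophage function and lung fibrosis caused by bleomycin, but the labels of these libraries name no bleomycin. The labels do not say whether the 3 libraries of a group are separate cultures, so a p-value measures only the spread among these libraries, which may be technical.

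The cytosolic ribosome joins a small subunit, which reads the mRNA, to a large subunit, which forms peptide bonds. Each subunit is built on ribosomal RNA by proteins that are needed in nearly equal numbers, so that cells usually make their mRNAs at related levels. These mRNAs are short and abundant and begin with a run of pyrimidines, the 5′ TOP motif, through which the kinase mTORC1 and the RNA-binding protein Larp1 control their translation. Mammalian genomes also carry many processed copies of these genes, which matters for any count of short reads.

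Library totals ranged from 11084705 to 13806559 counts, and a limit of 3 counts corresponded to between 0.217 and 0.271 CPM, which covers counting error only. CPM values are counts scaled to the library total after TMM normalisation. A log2 fold change is the BPAP value minus the DMSO value. Mitochondrially encoded genes took 10.8% of the counts of DMSO 1 and 6.53% to 7.55% of those of the other 5 libraries. All 10 listed macrophage marker genes were expressed, with a summed level of 5075 to 5664 CPM in DMSO and 5932 to 6370 CPM in BPAP. By edgeR's quasi-likelihood test, 6 of their 11 rows were higher in BPAP and 1, Csf1r, was lower, against 16.2% and 15.5% of all genes tested. Leaving out each library gave 3 or 4 higher rows and 0 to 2 lower ones. With the trend of fold changes with exon length and GC content removed, as described further on, Cd14 and Fcgr1 were higher and Csf1r was lower. No marker of T cells, B cells, epithelium or fibroblasts passed the filter on low counts, none had more than 12 counts in a library, and Cd3e, Cd8a, Ms4a1, Epcam, Cdh1, Krt18, Dcn and Pdgfra were at 0 in all.

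Ribosomal protein genes were mostly higher in BPAP-treated cells, by modest factors. Of the 87 genes, 83 had enough counts to be tested, and 54 of them were higher and 1 was lower at an adjusted p of 0.05. Among all 11711 genes tested, 16.2% were higher and 15.5% were lower. The median log2 fold change was 0.51 over the 83 genes and 0.02 over all genes. Rises ranged from 1.203-fold in Rpl6 to 1.86-fold in Rps28, with a median of 1.52-fold. In 57 of the 83 genes every BPAP library lay above every DMSO library, which was so for 25.2% of all genes. Positive fold changes were found in 77 of the 83 genes and negative ones in 6. In bulk RNA a change in the cells present and a change in RNA per cell cannot be told apart.

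**Figure D1:**
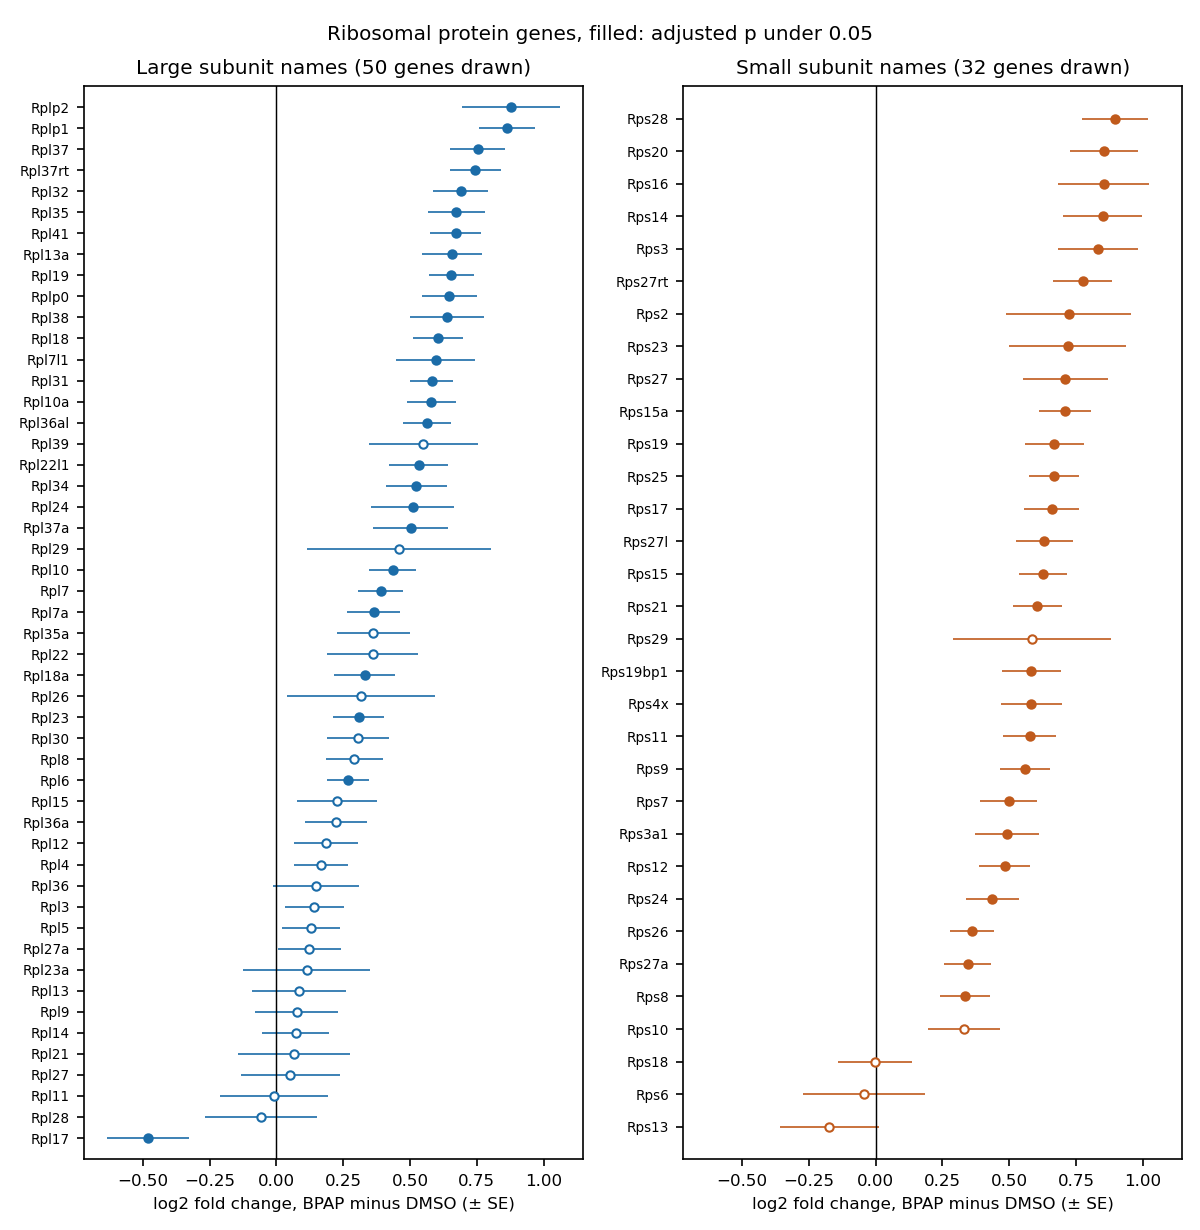
Log2 fold changes (x axis, BPAP minus DMSO, with standard errors) of the 50 tested genes with large subunit names and of 32 of the 33 with small subunit names, one row per gene, filled where the adjusted p was under 0.05. Most points lie right of 0, where 27 of the 32 small subunit genes drawn and 26 of the 50 large subunit genes are filled, and Rpl17 is the filled point left of 0.

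Genes of both subunits rose. Of 50 tested large subunit genes 26 were higher and 1 was lower, with a median log2 fold change of 0.36. Of 33 small subunit genes 28 were higher and 0 were lower, with a median of 0.59. These counts and medians describe the 2 subunits, and no test between them was run across genes. Left out in turn, DMSO 1, 2 and 3 gave 49, 46 and 47 higher genes (10.5%, 10.8% and 11.3% of all genes in those fits), and BPAP 1, 2 and 3 gave 51, 52 and 47 (13.2%, 14% and 13.6%). A total of 44 genes, 20 of the large and 24 of the small subunit, passed in all 6 of these fits.

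The stalk of the large subunit, which recruits the translation factors, is built by Rplp0 at its base and by Rplp1 and Rplp2. Rplp1 (chromosome 9, 61913284 to 61914538, GRCm38) had 602, 683 and 694 CPM in DMSO 1 to 3 and 1061, 1328 and 1207 CPM in BPAP 1 to 3. The groups did not overlap, and the rise was 1.82-fold (log2 change 0.86 ± 0.10 SE, adjusted p = 0.000706). Rplp2 (chromosome 7, 141447370 to 141451585) stood at 227, 283 and 291 CPM in DMSO 1 to 3 and 359.6, 594 and 519.5 CPM in BPAP 1 to 3. All BPAP values were above the DMSO values, but they spread more widely than those of Rplp1, and the gene was 1.84-fold higher (adjusted p = 0.0099). Rplp0 (chromosome 5, 115559467 to 115563727) rose 1.57-fold, from 1022 ± 64.8 CPM in DMSO to 1601 ± 179.8 CPM in BPAP (SD, n = 3 per group). Thus all 3 stalk genes were higher.

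Beyond the stalk, the large subunit genes with the smallest p-values were Rpl19, Rpl37rt, Rpl31, Rpl37 and Rpl41. Rpl19 (chromosome 11, 98026710 to 98030492) had 165, 175 and 177 CPM in DMSO 1 to 3 and 270.3, 286 and 258 CPM in BPAP 1 to 3. Its libraries lay close together within each group, and the rise was 1.57-fold (log2 change 0.65 ± 0.08 SE, adjusted p = 0.000783). Rpl31 (chromosome 1, 39367842 to 39371911) varied least in DMSO, with 316, 317 and 315 CPM. Its BPAP libraries had 446, 488 and 483 CPM, a rise of 1.496-fold (adjusted p = 0.00108). Rpl41, which encodes the smallest ribosomal protein, rose 1.59-fold, from 623 ± 48.5 CPM in DMSO to 992 ± 78.2 CPM in BPAP (SD, n = 3 per group, adjusted p = 0.00124). Rpl37 and its copy Rpl37rt rose by the same factor, 1.68-fold and 1.68-fold, and are taken up with the other copies.

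Among small subunit genes, Rps28 (chromosome 17, 33819027 to 33824562) rose most. It had 60.2, 67.6 and 72.97 CPM in DMSO 1 to 3 and 105, 142 and 127 CPM in BPAP 1 to 3. No BPAP library came near the DMSO range, and the rise was 1.86-fold (log2 change 0.90 ± 0.12 SE, adjusted p = 0.0011). Rps20 (chromosome 4, 3831334 to 3835665), whose protein sits in the head of the small subunit, had 178, 227 and 239.9 CPM in DMSO 1 to 3 and 342, 435 and 388 CPM in BPAP 1 to 3. The gene rose 1.81-fold (adjusted p = 0.00158). Rps15a (chromosome 7, 118104372 to 118116188) had 385, 462 and 449 CPM in DMSO 1 to 3 and 652, 739 and 730.0 CPM in BPAP 1 to 3. Its groups were well apart, at a rise of 1.64-fold (log2 change 0.71 ± 0.10 SE, adjusted p = 0.00111). Rps25, whose product some viral mRNAs need to start translation without a cap, rose 1.59-fold, from 327 ± 5.503 CPM in DMSO to 519 ± 55.7 CPM in BPAP (SD, n = 3 per group). Rps15 rose 1.54-fold, from 919 ± 28.5 CPM in DMSO to 1419 ± 110.1 CPM in BPAP. Rps19 and Rps24, which are mutated in Diamond-Blackfan anaemia, an inherited failure of red cell production, rose 1.59-fold and 1.35-fold.

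**Figure D2:**
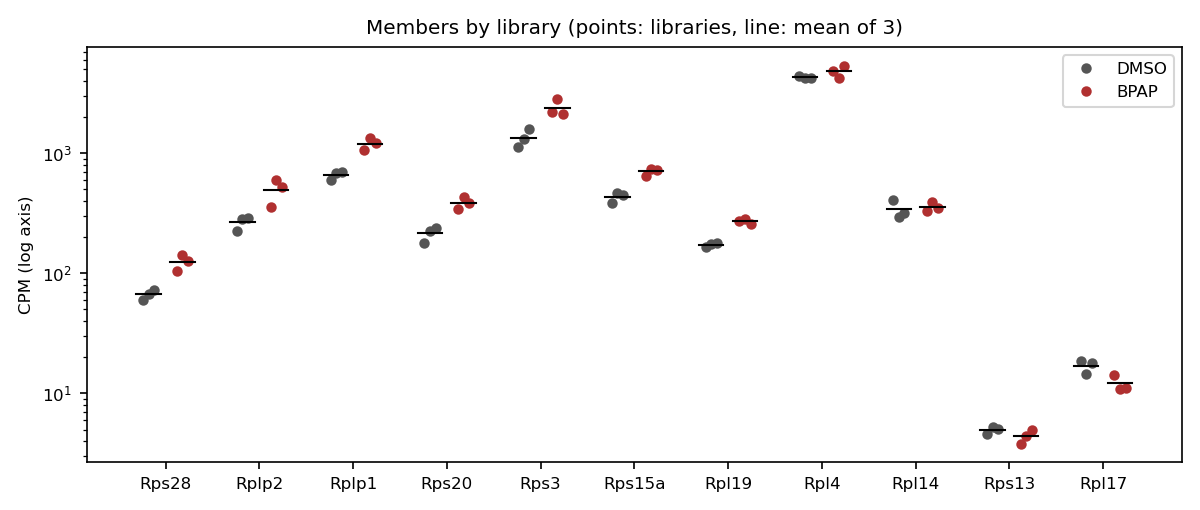
Levels (CPM, log axis) of 11 ribosomal protein genes in the 3 DMSO and the 3 BPAP libraries, with one point per library and a line at the mean of 3. The BPAP points of Rps28, Rplp2, Rplp1, Rps20, Rps3, Rps15a and Rpl19 lie above all DMSO points, those of Rpl4, Rpl14 and Rps13 overlap them, and those of Rpl17 lie below.

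The 1 gene that fell was Rpl17, whose protein lines the exit tunnel for the growing peptide. It had 18.5, 14.6 and 17.8 CPM in DMSO 1 to 3 and 14.2, 10.98 and 11.2 CPM in BPAP 1 to 3. BPAP 1, at 14.2 CPM, lay just under the lowest DMSO library, and the gene was 1.396-fold lower (log2 change -0.48 ± 0.15 SE, adjusted p = 0.0363). Its call did not hold when DMSO 1 was left out (adjusted p = 0.103), DMSO 3 (0.111), BPAP 2 (0.0804) or BPAP 3 (0.0964). Rpl4, chosen here after its values were seen, encodes another exit tunnel protein and had the highest level of the 83 genes per kilobase of mRNA, 2785 CPM in DMSO and 3128 CPM in BPAP. It had 4414, 4223 and 4211 CPM in DMSO 1 to 3 and 4862, 4239 and 5333 CPM in BPAP 1 to 3. BPAP 2 lay within the range of the DMSO libraries, and the gene did not pass (log2 change 0.17 ± 0.10 SE, adjusted p = 0.227). Rpl39, whose small protein lies in the same tunnel, had 174, 98.6 and 114 CPM in DMSO 1 to 3 and 175, 209.9 and 181 CPM in BPAP 1 to 3. No values overlapped, by a narrow margin, but DMSO 1 stood well above DMSO 2 and 3 and the adjusted p was 0.0762. Without DMSO 1 the gene passed, at 0.81 on the log2 scale (adjusted p = 0.00509). It also passed with DESeq2 (0.0144), limma-voom (0.0376) and limma-trend on FPKM (0.0487). With the length and GC trend removed Rpl39 stood at 0.21 (adjusted p = 0.529) and passed only when DMSO 1 was also left out.

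Apart from Rpl17, the lowest fold changes were those of genes with low counts. Rps13 had 4.59, 5.24 and 5.07 CPM in DMSO 1 to 3 and 3.82, 4.41 and 5.003 CPM in BPAP 1 to 3. The groups overlapped (-0.17 ± 0.19 on the log2 scale). Rps6, which encodes the protein that the S6 kinases phosphorylate, stood at only 3.49, 3.99 and 3.94 CPM in DMSO 1 to 3 and 2.85, 4.74 and 3.53 CPM in BPAP 1 to 3. BPAP 1 was the lowest and BPAP 2 the highest of the 6 (log2 fold change -0.04, adjusted p = 0.899). Rpl28 had a log2 fold change of -0.06, at 7.47 ± 1.78 CPM in DMSO to 7.13 ± 1.18 CPM in BPAP (SD, n = 3 per group). It shares 183 exon bases with Ube2s on the opposite strand, a gene with 611% of its counts, so its value is uncertain, since the strand setting is not given in the sources used here. Rps18 shares 156 exon bases with Vps52 on the opposite strand, with 331% of its counts.

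Several of these proteins have roles outside the ribosome, and their genes did not all behave alike. Rpl13a, which takes part in silencing inflammatory mRNAs in macrophages stimulated by interferon gamma, rose 1.58-fold, from 1009 ± 62.2 CPM in DMSO to 1590.4 ± 227 CPM in BPAP (SD, n = 3 per group, adjusted p = 0.00248). Rps3 (chromosome 7, 99477896 to 99483738), whose product also binds NF-kB and takes part in DNA repair, had 1116, 1309 and 1605 CPM in DMSO 1 to 3 and 2215, 2825 and 2135 CPM in BPAP 1 to 3. The lowest BPAP library lay above the highest DMSO library, and the rise was 1.78-fold (log2 change 0.83 ± 0.15 SE, adjusted p = 0.00389). Rps27a, which encodes ubiquitin fused to a ribosomal protein, rose 1.27-fold (adjusted p = 0.0152), a call lost without DMSO 1 (0.0556) and without DMSO 2 (0.0536). Rpl5 and Rpl11, whose products bind 5S rRNA and, when free, the p53 regulator Mdm2, stood at 0.13 and -0.01 on the log2 scale and missed the threshold. Both had far fewer counts than a processed copy.

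Paralogs were compared with their canonical genes side by side. Rpl7l1, a homologue of Rpl7 that acts in ribosome assembly, rose 1.51-fold and Rpl7 1.31-fold. Rpl22l1 rose 1.45-fold (adjusted p = 0.00595), while Rpl22 did not pass (log2 fold change 0.36, adjusted p = 0.137). Rpl22 had 501, 316 and 321 CPM in DMSO 1 to 3, the first well above the others. It passed without DMSO 1, at 0.59 on the log2 scale (adjusted p = 0.00474). With the length and GC trend removed Rpl22 stood at 0.17 (adjusted p = 0.564) and passed only when DMSO 1 was also left out. Rpl36al rose 1.48-fold, and Rpl36a did not pass (log2 fold change 0.22, adjusted p = 0.17) except without BPAP 2 (0.0489). Rps27l, a p53-inducible paralog of Rps27, rose 1.55-fold, and Rps27 rose 1.64-fold. Whether any paralog differed from its canonical gene was not tested. Rpl10 and Rps4x rose 1.35-fold and 1.497-fold and Rpl3 did not pass (log2 fold change 0.14), whereas their paralogs Rpl10l, Rps4l and Rpl3l, like Rpl39l, were not tested. Rpl10l, Rpl39l and Rps4l had no read in any of the 6 libraries, with 0 counts allowing a level of at most 0.271 CPM in the smallest one, and the muscle paralog Rpl3l had at most 6 counts in a library. The namesake Rps19bp1, known as a regulator of the deacetylase Sirt1, rose 1.498-fold.

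Summed over all 87 genes, ribosomal protein counts took 2.89%, 3.06% and 3.10% of the library in DMSO 1 to 3 and 3.97%, 4.51% and 4.23% in BPAP 1 to 3. The shares did not overlap and were 3.02 ± 0.11% and 4.24 ± 0.27% (SD, n = 3 per group), a ratio of 1.40. Large subunit genes went from 1.84 ± 0.02% to 2.44 ± 0.12%, a ratio of 1.33. Small subunit genes went from 1.18 ± 0.09% to 1.80 ± 0.15%, a ratio of 1.52. With mitochondrially encoded genes left out of the totals, the shares of all 87 genes were 3.29 ± 0.05% and 4.56 ± 0.26%.

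Counts of the large subunit genes divided by those of the small subunit genes gave 1.68, 1.54 and 1.47 in DMSO 1 to 3 and 1.39, 1.31 and 1.38 in BPAP 1 to 3. All BPAP ratios were below all DMSO ratios, with DMSO 1 farthest away. The means were 1.56 ± 0.10 and 1.36 ± 0.04 (SD, n = 3 per group). Rpl4 alone held 0.43% of DMSO counts and 0.48% of BPAP counts. Without Rpl4 the ratio was 1.195 ± 0.08 in DMSO and 1.09 ± 0.01 in BPAP. Both sums hold only genes chosen by name, and the ratio depends on that choice. Rpsa, a small subunit gene with 2663 CPM in DMSO, and processed copies with other names are outside them. No p is given for these sums, because the genes in them were chosen with earlier results known.

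**Figure D3:**
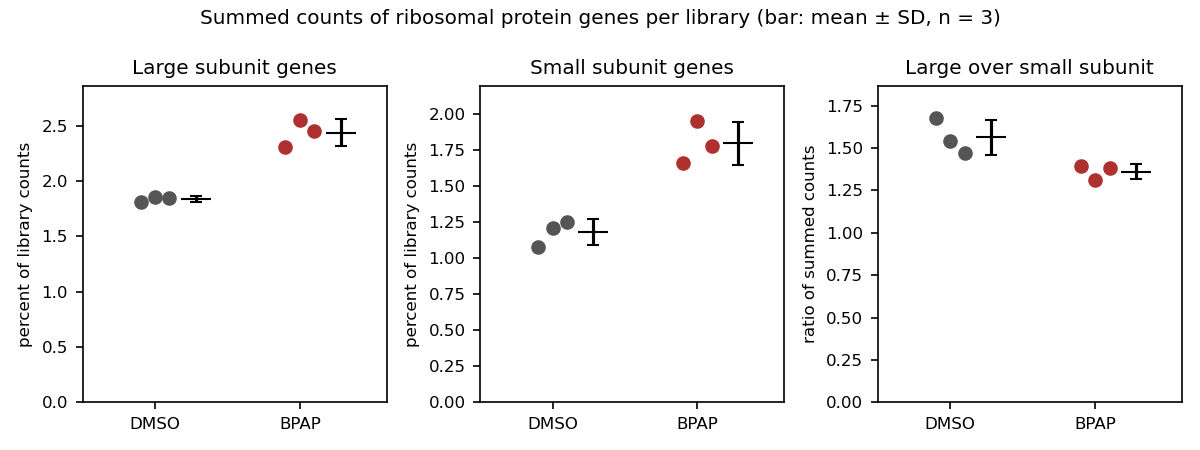
Share of each library's counts (percent) in large subunit genes and in small subunit genes, and the ratio of the 2 sums, with one point per library and the mean ± SD of 3 beside it. Both shares are higher in all BPAP libraries, and the ratio is lower (1.31 to 1.39 against 1.47 to 1.68).

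Calls were counted by the level of the gene. Of 48 genes with a mean of at least 100 CPM, 42 were higher and 0 lower. Among all tested genes of that level 20.8% were higher and 23.5% lower. All 21 small subunit genes of that level passed, and 21 of 27 large subunit genes. The 6 that did not pass were Rpl3, Rpl4, Rpl8, Rpl14, Rpl22 and Rpl39. Rpl8 had 1218, 1554 and 1343 CPM in DMSO 1 to 3 and 1560.4, 1682 and 1792 CPM in BPAP 1 to 3. These values did not overlap, but the difference missed the threshold (adjusted p = 0.0593). Rpl8 passed with upper quartile scaling (0.0448), with DESeq2 (0.0498), with the replicate number as a block (0.0327) and without DMSO 2 (0.0361). It stood at -0.04 on the log2 scale with the length and GC trend removed (adjusted p = 0.804). Between 10 and 100 CPM, 11 of 23 genes were higher, against 18.02% of all genes of that level. Below 10 CPM, 1 of 12 was higher, Rps23, against 8.67% of all genes. These 12 were Rpl9, Rpl11, Rpl21, Rpl23a, Rpl26, Rpl27, Rpl28, Rpl29, Rps6, Rps13, Rps23 and Rps29. Rps23 lost its call without any 1 of the DMSO libraries, BPAP 1 or BPAP 3, and with DESeq2. Across the 83 genes, which share the same libraries, the Spearman correlation of the log2 fold change with mean CPM was 0.44.

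Many of these genes share sequence with other rows of the table, and for some of them such rows held most of the counts. At least 1 run of 50 bases of the main mRNA was found in another annotated gene, of whatever kind, for 83 of the 87 genes, and 34 of the tested genes shared 50% or more of such runs. Another row of the table whose transcripts hold at least 20% of a gene's runs, called a copy row here, was found for 32 genes. In 15 of the 32 a copy row had more counts than the gene itself. How reads with several matches were assigned, and how long the reads were, is not given in the sources used here. Which row received such a read cannot be known, and counts of these genes are uncertain.

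Coding sequences show how close the copies are. Below are the first 90 coding bases, from the GENCODE M21 transcripts of GRCm38, of 4 genes, each beside the row that held most of the pair's counts. Every base is the same, so nothing is in capitals.
Rpl23a: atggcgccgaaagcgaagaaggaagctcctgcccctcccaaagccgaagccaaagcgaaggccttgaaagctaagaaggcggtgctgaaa
Rpl23a-ps3: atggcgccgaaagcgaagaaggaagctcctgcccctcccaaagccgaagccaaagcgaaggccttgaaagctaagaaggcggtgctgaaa
Rps18: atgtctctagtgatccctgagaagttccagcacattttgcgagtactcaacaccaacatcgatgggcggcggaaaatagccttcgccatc
Gm10260: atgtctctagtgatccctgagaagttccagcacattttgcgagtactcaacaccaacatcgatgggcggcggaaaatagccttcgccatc
Rpl9: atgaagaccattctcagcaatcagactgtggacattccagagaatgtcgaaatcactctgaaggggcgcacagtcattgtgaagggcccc
Rpl9-ps6: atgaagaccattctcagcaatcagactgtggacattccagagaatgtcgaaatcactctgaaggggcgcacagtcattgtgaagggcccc
Rpl12: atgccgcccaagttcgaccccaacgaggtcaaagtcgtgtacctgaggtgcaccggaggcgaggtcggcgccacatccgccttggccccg
Gm10275: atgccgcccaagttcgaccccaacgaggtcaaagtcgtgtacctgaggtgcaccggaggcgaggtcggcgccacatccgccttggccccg
Over the whole coding part, 99.8% of the bases of Rpl23a were the same in Rpl23a-ps3, 99.1% of those of Rps18 in Gm10260, 99.8% of those of Rpl9 in Rpl9-ps6 and 100% of those of Rpl12 in Gm10275.

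Counts in these pairs went almost wholly to the copy. Rpl23a (chromosome 11, 78180932 to 78183584) had 201 counts over the 6 libraries and Rpl23a-ps3 (chromosome 14, 34170655 to 34171168) had 54147. Rps18 (chromosome 17, 33951999 to 33956001) had 960 and Gm10260 (chromosome 13, 97760130 to 97760588) 59314. Rpl9 (chromosome 5, 65388364 to 65391444) had 495 and Rpl9-ps6 (chromosome 19, 32465885 to 32466575) 35708. Rpl12 (chromosome 2, 32961559 to 32965345) had 3726 and Gm10275 (chromosome 10, 29698746 to 29699380) 99618. The same was seen for Rpl5, with 6494 counts against 158317 in Gm15500, and for Rpl11, Rpl27 and Rps2.

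Many copy rows were higher too, but fewer with the length and GC trend removed. Of 29 tested copy rows outside the 87 genes, 20 were higher in BPAP and 0 were lower, against 16.2% and 15.5% of all genes, and the median log2 fold change was 0.53. Leaving out each library gave 15 to 19 higher rows. With the trend removed, 6 of the 29 were higher and 0 were lower, against 11.8% and 10.9% of all genes in that fit, and the median was 0.11. Gm10260, the copy of Rps18, had 525, 533 and 589.8 CPM in DMSO 1 to 3 and 939, 1185 and 1036 CPM in BPAP 1 to 3. The groups lay far apart, at a rise of 1.92-fold (adjusted p = 0.000545), and the row passed also with the trend removed (0.0043). Rpl23a-ps3 had 719, 534 and 553 CPM in DMSO 1 to 3 and 801, 925 and 876 CPM in BPAP 1 to 3. Here DMSO 1 was the highest DMSO library, still below all BPAP libraries (log2 fold change 0.53, adjusted p = 0.00925). With the trend removed the row did not pass (0.09, adjusted p = 0.629). All copy rows together held 1.06 ± 0.07% of DMSO counts and 1.504 ± 0.13% of BPAP counts (mean ± SD, n = 3 each).

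When each gene was summed with its copy rows, an alternative chosen after seeing the data, 58 of the 83 genes were higher and 1 was lower, and their median log2 fold change was 0.56. In that fit 16.1% of 11682 genes were higher. Rps27 and Rps27rt share a sum, as do Rpl37 and Rpl37rt, and these sums are counted under both names. Large subunit genes went from 26 to 31 of 50 higher, with a median of 0.50, and small subunit genes from 28 to 27 of 33, with a median of 0.59. Rps18 turned from a log2 fold change of -0.00 to 0.91 (adjusted p = 0.000552), from 608 ± 35.5 CPM in DMSO to 1142 ± 120.2 CPM in BPAP (SD, n = 3 per group). Rpl11 turned from -0.01 to 0.46 (adjusted p = 0.0433). Rpl9 rose to 0.71, Rpl27 to 0.62, Rpl12 to 0.58 and Rpl23a to 0.53, and all 4 now passed. Rps2 and Rps26 no longer passed (adjusted p = 0.0543 and 0.11). Rpl5 still did not pass, at 0.24 (adjusted p = 0.0539). Rpl17, Rps6, Rps13 and Rpl28 have no such copy row. The sums were not fitted with the length and GC trend removed. In the trend-removed fit of single rows, Gm10260 of Rps18 passed, as given above. The main copy rows of Rpl9 (adjusted p = 0.111), Rpl11 (0.826), Rpl12 (0.141), Rpl23a (0.629) and Rpl27 (0.206) did not pass in it.

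**Figure D4:**
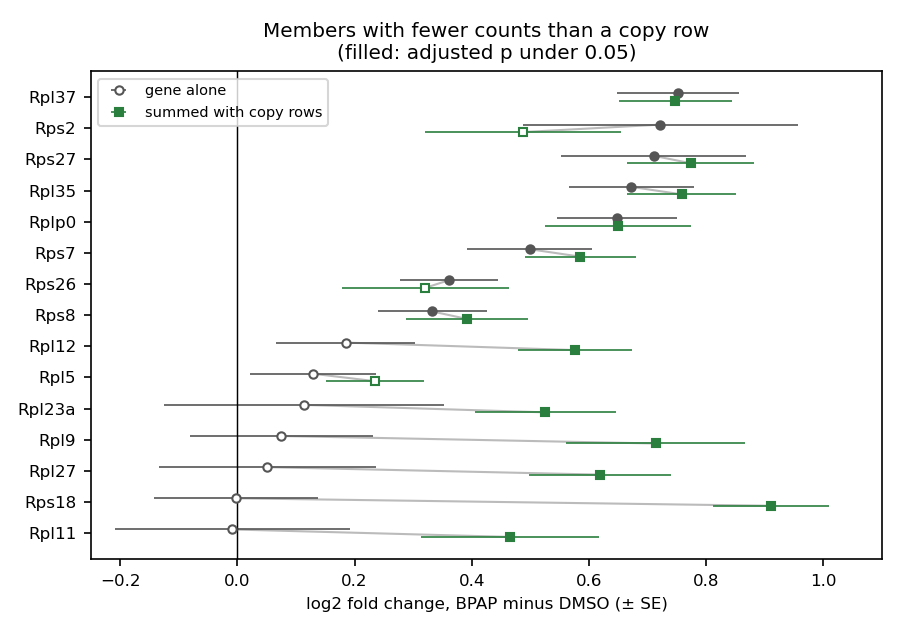
Log2 fold changes (x axis, BPAP minus DMSO, with standard errors) of the 15 genes that had fewer counts than a copy row, alone (circles) and summed with their copy rows (squares), filled where the adjusted p was under 0.05. Rpl9, Rpl11, Rpl12, Rpl23a, Rpl27 and Rps18 pass only when summed, and Rps2 and Rps26 only alone.

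Paralogs and copies with similar names differ in sequence to unequal degrees, as the next sets show. Capitals mark the bases at which the sequences of a set differ, again over the first 90 coding bases from GENCODE M21.
Rps27: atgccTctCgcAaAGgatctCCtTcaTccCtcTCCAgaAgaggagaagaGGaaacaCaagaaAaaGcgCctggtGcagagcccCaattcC
Rps27rt: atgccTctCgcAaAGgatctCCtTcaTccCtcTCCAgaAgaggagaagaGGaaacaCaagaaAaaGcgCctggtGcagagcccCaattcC
Rps27l: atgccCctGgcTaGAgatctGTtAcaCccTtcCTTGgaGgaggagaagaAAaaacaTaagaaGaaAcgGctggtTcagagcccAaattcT
Rpl36a: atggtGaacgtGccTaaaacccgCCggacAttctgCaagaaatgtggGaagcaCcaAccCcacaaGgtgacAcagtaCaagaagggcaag
Rpl36al: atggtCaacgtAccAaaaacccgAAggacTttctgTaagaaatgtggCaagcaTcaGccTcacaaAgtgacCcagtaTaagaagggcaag
Rps27 and Rps27rt were the same at all 90 bases and over the whole coding part, whereas Rps27l differed from Rps27 at 24 of the 90 bases. Rpl36al differed from Rpl36a at 14. Rps27 (chromosome 3, 90212522 to 90213651) had 870 counts over the 6 libraries and Rps27rt (chromosome 9, 114982371 to 114982740) 43680. Rps27rt rose 1.71-fold (adjusted p = 0.00119) and their sum had a log2 fold change of 0.77. Rpl37 and Rpl37rt were also the same over the first 90 coding bases and at 99.7% of the coding part.

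Gene length was compared because fold changes in this table fell with length. Ribosomal protein genes were short, with a median of 1739 bases of merged exons, each base counted once, against 4296 bases over all tested genes. Merged exons join all annotated isoforms, and the main mRNAs were shorter, with a median of 869 bases. Rps24, for one, had 6256 bases of merged exons and a main mRNA of 1613 bases. Across genes, which are not replicates, the Spearman correlation of the log2 fold change with exon length was -0.40 in all other tested genes. It was -0.25 in the 83 genes, -0.32 in the 50 of the large subunit and -0.07 in the 33 of the small subunit. With the length of the main mRNA it was -0.11 in 82 of the 83 genes. In the 28 genes with the shortest exons, 374 to 1434 bases, 21 were higher and the median log2 fold change was 0.62. Among other genes of that length 35.6% were higher, with a median of 0.33. In the middle group, 1444 to 2311 bases, 19 of 27 were higher, with a median of 0.36, against 30.8% and 0.25 in other genes. In the 28 genes of 2394 to 6270 bases, 14 were higher, with a median of 0.36, against 15.04% and 0.05 in other genes.

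When the dependence on exon length and GC content was taken out of each library, 30 of the 83 genes were higher and 1 was lower. In that fit 11.8% of 11665 genes were higher and 10.9% lower. The median log2 fold change of the 83 genes went from 0.51 to 0.22. Large subunit genes had 17 of 50 higher, with a median of 0.14, and small subunit genes 13 of 33, with a median of 0.27. At 100 CPM and above, 15 of 27 large subunit genes and 12 of 21 small subunit genes were still higher. Between 10 and 100 CPM, 3 of 23 genes were higher, a share near the 11.8% of genes of all levels in that fit. Below 10 CPM 0 of 12 were higher. Shares of all genes at each level were not counted in that fit. In the 3 length groups 9 of 28, 8 of 27 and 13 of 28 genes were higher, from the shortest to the longest. Among other genes of those lengths 8.17%, 10.5% and 11.02% were higher in the same fit. Medians of the ribosomal protein genes in these groups were 0.24, 0.12 and 0.23, against -0.02, -0.01 and -0.00 in other genes. The count was 27 without DMSO 1 (7.89% of all genes in that fit), 16 without DMSO 2 (6.25%) and 19 without DMSO 3 (7.58%). It was 23 without BPAP 1 (8.9%), 23 without BPAP 2 (9.66%) and 19 without BPAP 3 (9.14%).

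Single genes differed widely in how they stood with the trend removed. Rps15a, with 6270 bases of merged exons the longest of the 83, went from 0.71 to 0.79 (adjusted p = 0.00133). Rps20 went from 0.85 to 0.87 and Rps3 from 0.83 to 0.80, while Rps19 went from 0.67 to 0.62 and Rps24 from 0.44 to 0.53, all with an adjusted p under the threshold. Rps24 did not pass when the trend used a length derived from counts and FPKM in place of the merged exons. Of the shortest, Rps27rt, with 374 bases, went from 0.77 to 0.37 (adjusted p = 0.0272), Rpl36, with 383 bases, from 0.15 to -0.28 (adjusted p = 0.21), and Rplp1, with 499 bases, from 0.86 to 0.46 (adjusted p = 0.0069). Rpl17 went to -0.80 (adjusted p = 0.00785). No longer past the threshold were Rps27a (0.365), Rps27 (0.144), Rps4x (0.056), Rpl10 (0.109), Rps19bp1 (0.088), Rps27l (0.069) and Rpl36al (0.112). In all 6 fits without 1 library and with the trend removed, 16 genes kept their call: Rpl10a, Rpl13a, Rpl18, Rpl37, Rpl37rt, Rplp1, Rps3, Rps9, Rps14, Rps15a, Rps19, Rps20, Rps24, Rps25 and Rps28, which were higher, and Rpl17, which was lower.

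**Figure D5:**
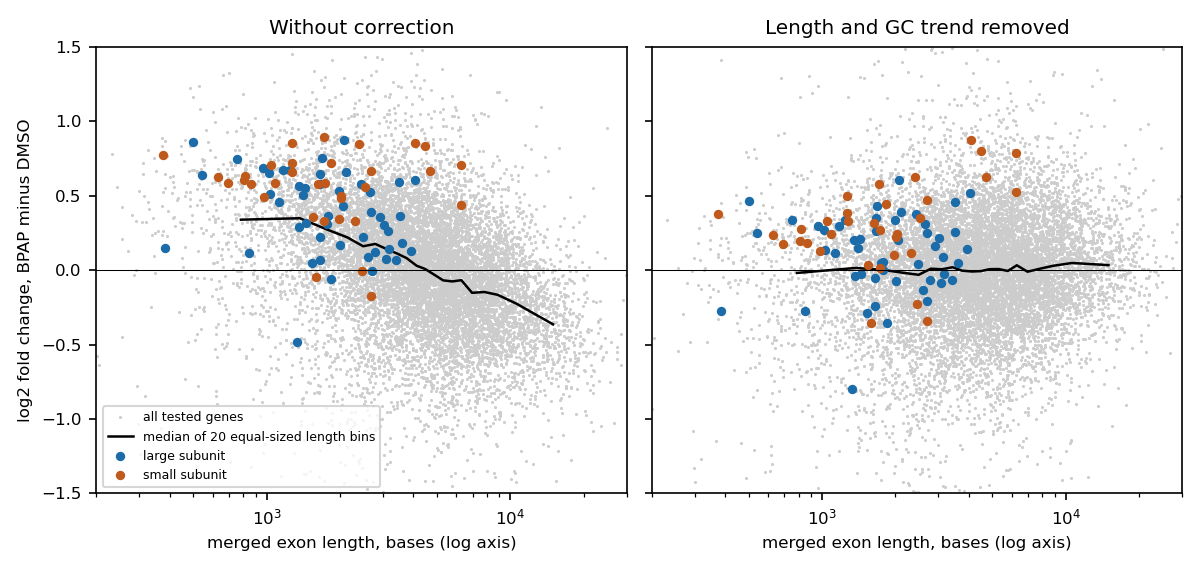
Log2 fold change (y axis, BPAP minus DMSO) against merged exon length (bases, log axis) for all tested genes (grey), large subunit genes (blue) and small subunit genes (orange), without correction and with the length and GC trend removed. The line joins the medians of 20 length groups of equal size, values beyond 1.5 in either direction are not drawn, and the ribosomal protein genes lie mostly above the line in both panels (medians 0.51 and 0.22).

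The start of the mRNA was examined for the pyrimidine run that marks TOP mRNAs. RefSeq promoter entries of GRCm38.p6, 250 bases before to 50 after the start, were found for 66 of the 87 genes. A run of at least 8 bases of only C or T on the sense strand, beginning from 5 bases before to 10 after the annotated start, was held by 18 of the 66 genes (27.3%) and by 7.55% of 26959 other genes. Runs that began before that window were not counted, as in Rpl35 and Rpl14. A gene without a counted run may thus still have a pyrimidine run at its start. A counted run was found in 10 of 43 genes that were higher in BPAP and in 8 of 20 that did not pass. By the calls of genes summed with their copy rows, it was found in 10 of 46 higher genes and in 8 of 17 that did not pass. Shown are 30 bases, from 10 before the start, of 4 named genes that rose (the first 4) and 3 that did not pass, of which Rps18 was higher when summed with its copy rows, with the run in capitals.
Rplp2 (chr7:141447641-141447670, + strand): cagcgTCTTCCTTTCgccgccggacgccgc
Rps15a (chr7:118116128-118116157, - strand): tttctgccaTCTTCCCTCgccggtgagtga
Rps24 (chr14:24490668-24490697, + strand): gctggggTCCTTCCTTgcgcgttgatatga
Rpl13a (chr7:45128726-45128755, - strand): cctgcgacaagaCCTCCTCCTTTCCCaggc
Rps6 (chr4:86857348-86857377, - strand): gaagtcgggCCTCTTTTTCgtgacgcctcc
Rps18 (chr17:33955646-33955675, - strand): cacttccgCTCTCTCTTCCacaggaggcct
Rpl28 (chr7:4792955-4792984, + strand): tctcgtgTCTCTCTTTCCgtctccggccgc
Runs of like length stood in both sets, and a run is a description of these letters, not of translation. The letters CCGGAAG, the core bound by ETS factors, were found on either strand within the 300 bases of 25 of the 66 genes (37.9%), against 9.86% of other genes. They were present in 16 of 43 genes that rose and in 8 of 20 that did not pass.

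Rpsa, Fau and Gnb2l1, components of the ribosome that are spelled otherwise, were higher. Rpsa, which encodes a small subunit protein also known as the laminin receptor, rose 1.29-fold, from 2663 ± 50.6 CPM in DMSO to 3424 ± 207 CPM in BPAP (SD, n = 3 per group, adjusted p = 0.0107). Fau, which encodes a ubiquitin-like protein fused to a small subunit protein, rose 1.31-fold (adjusted p = 0.0142), a call lost without DMSO 2 (0.0594) and DMSO 3 (0.0588). Gnb2l1, also called Rack1, a scaffold protein on the small subunit, rose 1.51-fold (adjusted p = 0.0216), with BPAP 2 well above the other libraries at 3047 CPM. Its call was lost without any 1 of the DMSO libraries (0.0646 to 0.0855). With the length and GC trend removed, Gnb2l1 passed, and Rpsa (0.092) and Fau (0.822) did not.

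Of other mRNAs with a TOP motif, more were higher than lower. Of 22 listed, 8 were higher and 1 was lower, against 16.2% and 15.5% of all genes, and the median log2 fold change was 0.09. The higher ones were Tomm20 (0.74), of the mitochondrial import receptor, Btf3 (0.65), which binds new peptides at the ribosome, the initiation factor genes Eif3f (0.47), Eif3k (0.45) and Eif3h, and Tpt1, Eef2 and Naca. Elongation factor gene Eef1a1 did not pass (log2 fold change 0.12, adjusted p = 0.33), and Eif4a2, an RNA helicase gene, was lower (-0.44). Calls of Eif3h, Eef2, Naca and Eif4a2 were each lost without 2 to 4 of the 6 libraries in turn (adjusted p = 0.0505 to 0.0965). With the length and GC trend removed, Tpt1, Eef2, Eif3h and Eif4a2 did not pass (adjusted p = 0.0789 to 0.651), while Eif3e was higher (0.00142) and Vim lower (0.0407). Whether the ribosomal protein genes and these genes differ was not tested.

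Chaperones and importers that carry new ribosomal proteins were counted too. Of 10 listed, 3 were higher and 1 was lower, against 16.2% and 15.5% of all genes. With the length and GC trend removed, 2 were higher and 0 lower, against 11.8% and 10.9% of all genes. Pdcd2, a chaperone for a small subunit protein, had 13.95, 13.8 and 14.02 CPM in DMSO 1 to 3 and 25.9, 22.1 and 21.98 CPM in BPAP 1 to 3. The groups were far apart (log2 change 0.74 ± 0.12 SE, adjusted p = 0.00192). Grwd1 and Aamp, chaperones for large subunit proteins, rose 1.53-fold and 1.45-fold, and Grwd1 did not pass with the length and GC trend removed (adjusted p = 0.0843). The import receptor gene Ipo7 fell (log2 fold change -0.43, and 0.01 with that trend removed, adjusted p = 0.915).

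In the mTORC1 pathway, which governs TOP mRNAs, 2 of 16 genes were higher, a share near the 16.2% of all genes, and 6 were lower, against 15.5% of all genes. The median log2 fold change was -0.27. With the length and GC trend removed, 11.8% of all genes were higher and 10.9% lower. Of the 16 genes, 2 were higher in that fit, Eif4ebp1 and Rheb, and 1 was lower, Rps6kb2. Eif4ebp1, which encodes a repressor of cap-dependent initiation, rose 1.49-fold (adjusted p = 0.00393). Akt1s1 rose 1.69-fold, a call lost with the trend removed (0.0605) and without DMSO 1, DMSO 2, BPAP 1 or BPAP 2 (0.0548 to 0.106). Rps6kb2, an S6 kinase gene, had 19.8, 18.9 and 16.1 CPM in DMSO 1 to 3 and 12.5, 12.6 and 12.3 CPM in BPAP 1 to 3. Its groups did not overlap (log2 change -0.55 ± 0.13 SE, adjusted p = 0.0102), also with the trend removed (0.0127). Deptor, Larp1, Larp4, Rps6kb1 and Tsc1 were lower too, at log2 fold changes of -0.28 to -0.42, and none of the 5 passed with that trend removed (adjusted p = 0.0505 to 0.786). Without 2 to 5 of the 6 libraries in turn, Rps6kb1, Larp1 and Tsc1 did not pass (0.0520 to 0.0861). Mtor itself did not pass (log2 fold change -0.26, adjusted p = 0.0608).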

How the data were processed

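RNA was extracted with TRIzol and made into libraries with a VAHTS Universal V6 kit, per the labels' protocols. HISAT2 2.0.4, StringTie 1.3.3b, edgeR and GRCm38 were named in the submitters' processing notes, without roles. The authors deposited raw counts per gene and FPKM values for the 6 libraries, per the file headers, in one table. The FPKM values served one alternative, limma-trend on log2(FPKM + 1) for genes whose mean FPKM was 1 or more.

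The members and gene lists were chosen with earlier results of these data known. Counts were tested with edgeR 4.0.16 (R 4.3.3): default expression filter, TMM scaling, robust quasi-likelihood test with treatment as the only term, 2-sided p-values and Benjamini-Hochberg adjustment over all 11711 genes tested. The threshold was 0.05 with no limit on the fold. Standard errors were derived from each F statistic. The trend with length and GC content was, per library, a lowess curve (span 0.3) of deviations from gene means on merged exon length and then GC content, entered as an offset for 11665 genes. Lengths, sequences and exon overlaps came from GENCODE M21, which held 34344 of the table's 34745 identifiers; coordinates are those of the table. Fits were tested on simulated counts, where the main fit recovered 46.3% of 1.5-fold and 90.9% of 2-fold changes. With a length trend added and then removed, 47.8% and 92.4% were recovered. False calls were 5 of 159 in the first and 12 of 171 in the second. No 2 libraries agreed within sampling noise.

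Genes named with values are, per subunit, the 6 with the smallest p past the threshold and the 3 with the lowest fold change, every gene that was lower, the stalk genes, the paralogs with their canonical genes, 6 genes with other known roles, and the 3 shortest and the 3 longest. Others were chosen after their values were seen. Alternatives were DESeq2 1.42.0 and its size factors, upper quartile scaling, no filter, limma 3.58.1 (voom and trend), the replicate number as a block, each library left out, other forms of the trend and copies summed. Groups came from the treatment label. Some genes are not reported here by name, though counts over all genes include them.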

Additional observations from a re-analysis of the deposited data

How the results depend on the processing

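The count of 54 higher genes stayed within 1.5 times under DESeq2 and its size factors, upper quartile scaling, limma-voom, limma-trend on FPKM, no filter on low counts, each library left out (46 to 52) and copies summed. With length and GC removed it was 30, and with length alone removed 28. Large subunit genes then counted 17 and 15, against 26, and small subunit genes 13 and 13, against 28. Leaving out each library gave 21 to 25 large and 24 to 28 small subunit genes. The lower count was 0 to 1 in those fits, 0 wherever Rpl17 lost its call. With length and GC removed, leaving out each library gave 16 (DMSO 2) to 27 (DMSO 1), with 19 for DMSO 3 and for BPAP 3. Using the FPKM length gave 36, a span of 0.5 gave 30 and a trend fitted without the members 30. Shares of all genes called were not counted for these forms of the trend or for length alone. The same holds for the other methods and scalings and for no filter, so those counts have no share beside them. Rpl11 (0.46) and Rps18 (0.91) turned from negative to positive log2 fold changes with copies summed. The rise in share was 1.22 percentage points and 1.08 to 1.35 with each library left out. Depth limits the 12 genes under a mean of 10 CPM, whose log2 fold changes had standard errors of up to 0.34.

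With the replicate number as a block, 56 genes were higher and 1 was lower, and 32 were higher with length and GC also removed. No share of all genes called was counted for these block fits. Same-numbered libraries deviated together only weakly (correlations 0.10, 0.05 and 0.01), so the numbers were not taken to pair the libraries.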

Other observations

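The table also holds 21 rows that carry a ribosomal protein name with -ps, which the choice by name left out, and 12 of them had enough counts to be tested. Rpl39-ps (chromosome 15, 102634982 to 102635336), named as a pseudogene of the exit tunnel gene Rpl39, had 63.98, 75.5 and 81.5 CPM in DMSO 1 to 3 and 138, 172 and 149.9 CPM in BPAP 1 to 3. The groups lay far apart, and the row was 2.08-fold higher (log2 change 1.06 ± 0.12 SE, adjusted p = 0.000545). It stood at 0.62 with the length and GC trend removed (adjusted p = 0.00641). Rps26-ps1, which had more counts than Rps26, had 933, 523 and 465 CPM in DMSO 1 to 3 and 810.0, 791 and 739 CPM in BPAP 1 to 3. DMSO 1 was the highest of the 6 libraries, and the row did not pass (log2 change 0.28 ± 0.26 SE, adjusted p = 0.452).

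Of the 10 kinase genes named Rps6k, which the same choice left out, 8 were tested, 0 were higher and 2, Rps6kb1 and Rps6kb2, were lower by edgeR's quasi-likelihood test, against 16.2% and 15.5% of all genes. Of the lower ones, Rps6kb2 also passed with the length and GC trend removed and Rps6kb1 did not. Rps6ka6 and Rps6kl1 had 0 counts in all libraries. The remaining 6 did not pass, with adjusted p-values from 0.0526 in Rps6ka5 to 0.937 in Rps6ka3.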
